A study of Rattus norvegicus with 22 samples.

Results

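Cutting the hepatic branch of the vagus nerve was compared with sham surgery in the liver of rats that breathed clean air. The comparison holds 11 of the 22 libraries of the study, 6 from vagotomised rats and 5 from sham-operated rats, chosen by the surgery and air labels and by no measured value. The other 11 libraries are from the ozone groups of the same 2-factor design and were not used here. Rats bought at 10 to 11 weeks of age had the surgery at 12 weeks and recovered for 5 to 6 days. Both groups then had sessions of 4 hours in air, on 1 day or on 2, before the liver was taken within 2 hours. The labels do not name the strain or sex, and do not say which rats had 1 session and which had 2, so exposure days could not be modelled. RNA came from 10 to 20 mg of liver, and each library is read as 1 rat on the strength of the design text. In such a bulk sample, fewer cells of a type and less RNA per cell cannot be told apart. No transcript checks that the nerve was cut, and the labels give no such check.

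The hepatic vagus runs between the brainstem and the liver hilum and carries mostly sensory fibres, with a smaller motor supply. Its motor endings release acetylcholine, which acts on muscarinic and nicotinic receptors, and the nerve is known for its part in glucose production, insulin signalling and feeding signals. The questions put to the 11 livers were which transcripts differ after the nerve is cut, without any ozone, and how large a difference could have gone unseen.

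Sequencing depth was 14098863 to 21141337 recovered reads per library. Of 6 measures per library (total reads, genes with a read, share of the 10 most abundant genes, 5.8S ribosomal RNA, small nucleolar RNAs and mitochondrial transcripts), none passed a test between the groups (exact permutation test over 462 splits, two-sided p from 0.2468 to 0.9329, smallest adjusted p 0.9026). Vagotomised livers 1 and 5 stood apart: 5.8S was at 180 and 89.4 normalised counts, against 342 to 2110 in the other 9. Their 57 small nucleolar RNA rows summed to 115 and 98.4, against 912 to 3396. Sham livers held 713 to 2110 of 5.8S. Vagotomised livers 2 and 4, at 342 and 411, also lay below that range, while vagotomised livers 3 and 6 held 1877 and 1687. In the per-gene limma fit below, 5.8S had a log2 change of -1.44 (0.138- to 0.980-fold, unadjusted limma p of 0.0461) and was not called. Livers 1 and 5 also scored lowest on the leading principal component (32.9% of variance). Results that rest on these 2 livers are given with and without them below.

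No gene passed the test. Genes were tested where their mean over the 11 libraries reached 10 normalised counts. Of these 12431 genes, 0 had a Benjamini-Hochberg adjusted p under 0.05 in limma (0%), and the smallest adjusted p was 0.9994. An unadjusted p under 0.05 was found for 419 genes (3.37%), where a flat distribution of p would give 622. Of these, 227 had higher estimates after vagotomy (1.83%) and 192 lower (1.54%). On recovered reads, edgeR also called 0 genes with TMM factors (449 at an unadjusted p under 0.05) and 0 with the deposited scaling (445). DESeq2 called 0 genes as well (463 at an unadjusted p under 0.05), with a smallest adjusted p of 0.1447. Among the genes named below, Knl1, Top2a and LOC100361259 had that value. The median log2 change, vagotomy minus sham, was -0.0022 over all tested genes, and 90% of genes lay between -0.28 and 0.32 (5th and 95th percentiles).

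**Figure D1:**
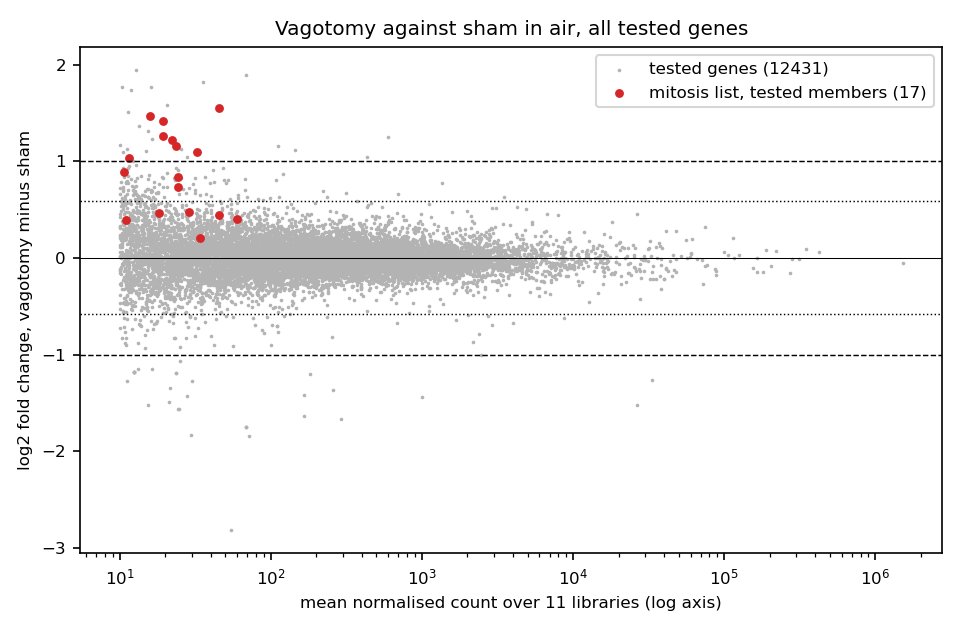
Each point is 1 of 12431 tested genes, with its mean normalised count over 11 libraries on a log axis and its log2 fold change, vagotomy minus sham, on the vertical axis. Dashed lines mark a 2-fold and dotted lines a 1.5-fold change; 63 genes lie beyond the dashed lines, none passed the test, and the 17 tested mitosis genes (red) all lie above 0.

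The data were precise enough to exclude a doubling or halving for most liver transcripts. A fold limit counts here as excluded for a gene where paired one-sided tests placed its change inside that limit at an adjusted p under 0.05. A 2-fold change in either direction was excluded for 11925 genes (95.9%) and a 1.5-fold change for 9417 (75.8%). These shares over all genes are the reference for the list counts below. A 1.2-fold change was excluded for 0 genes (0%) after adjustment. Without adjustment, the plain 95% interval of the log2 change lay inside 2-fold for 93.7% of genes, inside 1.5-fold for 70.7% and inside 1.2-fold for 8.7%. The interval reached a median of 0.33 on the log2 scale to either side of the estimate, which is 1.26-fold, and 0.73 or 1.66-fold at the 95th percentile. A gene changing alone among the 12431 would have needed a log2 change of 1.12 (2.18-fold) at the median precision to pass the adjusted threshold. A call for 1 gene thus needed a larger change than the size that was excluded for most genes.

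Precision differed by expression level. Among 1755 genes with mean normalised counts of 10 to 30, the interval lay inside 2-fold for 70.8% and inside 1.5-fold for 12.0%. From 30 to 100 these shares were 94.2% and 58.2%, and from 300 to 1000 they were 98.8% and 90.6%. Above 10000, where plasma protein transcripts lie, they were 98.5% and 86.5%, so the most abundant messages were not held more tightly than those of middle level. The narrowest interval belonged to Anxa6, a calcium-dependent membrane-binding annexin, whose log2 change of 0.02 had limits of 0.912- and 1.12-fold. At the other end were 506 genes (4.07%) for which 2-fold was not excluded. Of these, 334 had means under 30, 98 had means from 30 to 100, and 21 had means of at least 1000. Adding 1 to each value before the log understates changes of scarce transcripts, so limits are easier to exclude for them. With 0.5, 1 or 5 added, 2-fold was excluded for 11875, 11925 and 12162 genes.

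**Figure D2:**
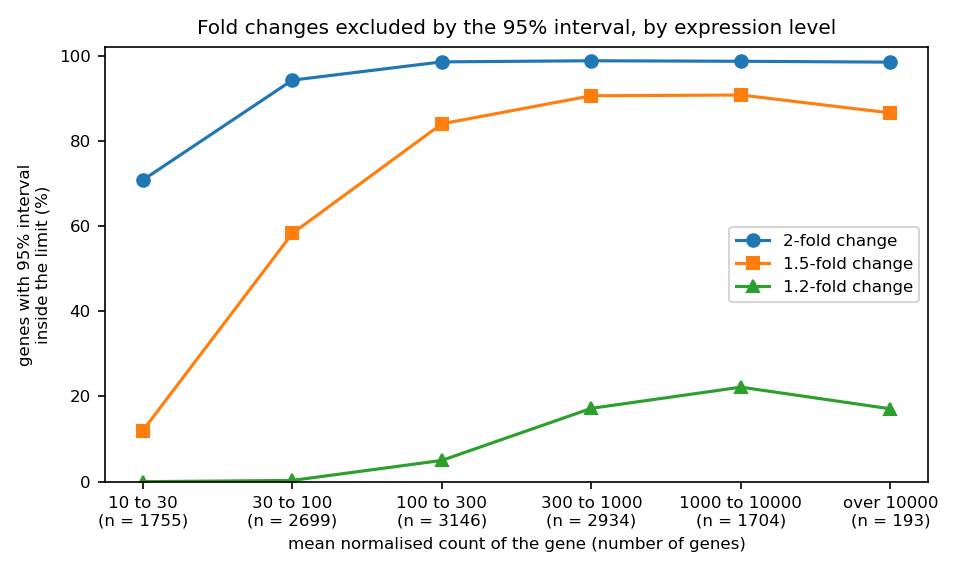
The share of genes (%) whose 95% interval of the fold change lies inside 2-fold, 1.5-fold or 1.2-fold, by bins of mean normalised count, with the number of genes under each bin. The 2-fold share rises from 70.8% in the lowest bin to over 98% from 100 normalised counts upward, while the 1.2-fold share reaches 22.2% at most.

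Receptors through which nerves and glucose hormones act on liver cells were set out first. Of 29 genes in this list, 19 were in the table and 13 were tested. The tested genes include cholinesterase enzymes, which are not receptors, so the counts describe the list. None was called, the median log2 change of the list was -0.04 (-0.0022 over all genes), and 2-fold was excluded for 12 of 13 (95.9% of all genes). Chrm3, the muscarinic M3 receptor, was below the minimum, with 3.86 to 7.43 normalised counts in sham and 3.40 to 11.0 after vagotomy. Chrna7, the alpha-7 nicotinic subunit, was the receptor with the widest interval: its log2 change was -0.83 with limits of 0.267- and 1.18-fold. Sham livers held 25.9, 35.7, 26.0, 49.2 and 27.7 normalised counts of Chrna7, and vagotomised livers 3.40 at the lowest, 21.9 at the median and 43.8 at the highest. The groups overlapped, and the lowest values came from vagotomised rats 1 and 5. Adra1b, the alpha-1B adrenergic receptor through which sympathetic signals release glucose, had a log2 change of 0.08 (0.833- to 1.33-fold). For Vipr1, a receptor for vasoactive intestinal peptide, the limits were 0.779- and 1.27-fold. A 2-fold change of both receptors thus lay outside their intervals. Insr, the insulin receptor, had the narrowest interval of the list, 0.892- to 1.22-fold.

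Genes of glucose production had slightly higher estimates after vagotomy without passing the test. In the gluconeogenesis list, 15 of 19 tested genes had estimates above 0 (49.3% of all genes), with a median log2 change of 0.25, 1 gene at an unadjusted p under 0.05 and 0 called. Without vagotomised livers 1 and 5 the median was 0.12, with 14 of 19 above 0. Pck1 encodes the enzyme that commits oxaloacetate to glucose synthesis. Sham livers held 53453, 66048, 64830, 68506 and 77400 normalised counts of Pck1, and vagotomised livers 71058 at the lowest, 77980 at the median and 113561 at the highest. The groups overlapped through sham rat 5, and vagotomised rat 5 stood above all others. The means were 66047 ± 8588 (SD, n = 5) and 82801 ± 15805 (SD, n = 6), a log2 change of 0.32 with limits of 1.02- and 1.53-fold.

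For G6pc, glucose-6-phosphatase, which frees glucose for export, the log2 change was 0.25 (0.912- to 1.56-fold). Its 5 sham values ran from 10493 to 19342 and the vagotomised ones from 13544 to 26710, with a median of 15590. Hnf4a, a hepatocyte transcription factor and the member of the list with the narrowest interval, had limits of 0.828- and 1.047-fold. Sds, serine dehydratase, had the widest, 0.665- to 3.31-fold. A doubling of Pck1, G6pc or Hnf4a lay outside these intervals, but a doubling of Sds did not. Ppargc1a, a coactivator of the fasting response, had limits of 0.827- and 1.78-fold.

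In glycogen storage, too, no gene was called. Gys2, liver glycogen synthase, had a log2 change of 0.13 (0.965- to 1.25-fold), and 2-fold was excluded for 15 of 16 genes of the glycogen list, whose median was -0.03. Ppp1r3g, a glycogen-targeting subunit of protein phosphatase 1, had the widest interval of that list, with a log2 change of 0.91 (0.81- to 4.33-fold). Mlxipl encodes ChREBP, the transcription factor that senses glucose. It was the 1 member of the fatty acid synthesis list in which the groups did not overlap, against 0.193% of all genes with vagotomy higher. Sham livers held 596, 722, 645, 511 and 659 normalised counts of Mlxipl and vagotomised livers from 744 to 1037, with a median of 818. The log2 change of 0.44 (1.15- to 1.59-fold) had an unadjusted limma p of 0.001498 and an adjusted p of 0.9994. Within the glycolysis list, the row listed as Gapdh held 1.86 to 27.4 normalised counts, low for this abundant enzyme, and is uncertain because near-identical copies of the gene can share its reads.

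Insulin signalling was described by 21 genes, of which 16 had estimates above 0, with a median of 0.07 and 0 called. Igfbp1, an insulin-repressed binding protein of insulin-like growth factors, had the widest interval of this list. Sham livers held 1010, 2563, 879, 3618 and 5705 normalised counts of it and vagotomised livers 1362 to 8653, with a median of 3869. The log2 change was 0.63 with limits of 0.694- and 3.46-fold. Igfbp1 differed more within each group than between them, and its interval still held a 3-fold rise. Akt2, the insulin-regulated kinase, was held to 0.905- to 1.21-fold.

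In the lipid lists, 2-fold was excluded for most or all tested genes, as it was for 95.9% of all genes. For fatty acid synthesis, it was excluded for 16 of 20 genes, and 1.5-fold for 12 of 20 (75.8% of all genes). The median log2 change was -0.05. The 4 genes left were Scd, Elovl6, Pnpla3 and Lpin1, of which Elovl6, a fatty acid elongase, had the widest interval of the list. Scd, stearoyl-CoA desaturase, and Lpin1, a phosphatidate phosphatase, had the lowest and highest estimates of the list, -0.63 (0.314- to 1.33-fold) and 0.78 (0.925- to 3.17-fold). Sham livers held 2847 to 20908 normalised counts of Scd and vagotomised livers 2442 to 13755, so the groups overlapped almost fully. For cholesterol synthesis, 2-fold was excluded for 26 of 26 genes and 1.5-fold for 19 of 26. Their median log2 change was -0.13, with 5 of 26 estimates above 0 (49.3% of all genes) and 4 genes at an unadjusted p under 0.05, all lower (1.54% of all genes). Nsdhl, a late enzyme of the pathway, was held to 0.822- to 1.06-fold. Summed over the pathway, sham livers held 79243 to 106831 normalised counts and vagotomised livers 69772 to 96354, with overlap. For PPAR-alpha targets and fatty acid oxidation, 2-fold was excluded for 26 of 26 genes, with a median of 0.07. Cpt1a, which brings fatty acids into mitochondria, had limits of 0.71- and 1.31-fold, and Hadha, the trifunctional protein subunit, 0.946- and 1.19-fold. Srebf1, which drives lipogenesis, had limits of 0.84- and 1.36-fold. Fgf21, a fasting hormone of the liver, had a log2 change of -0.06 (0.586- to 1.57-fold). For lipoproteins, 2-fold was excluded for 18 of 18 genes.

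Bile acid synthesis could not be bounded at its first enzyme. Cyp7a1, cholesterol 7-alpha-hydroxylase, had sham values of 783, 4387, 1979, 7069 and 7515 normalised counts. The vagotomised values ran from 1237 to 10855, with a median of 3936, and the groups overlapped almost fully. The means were 4347 ± 2990 (SD, n = 5) and 4595 ± 3348 (SD, n = 6), and the interval reached from 0.479- to 2.74-fold. Over the bile acid list 2-fold was excluded for 18 of 20 genes, with a median of -0.0043.

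**Figure D3:**
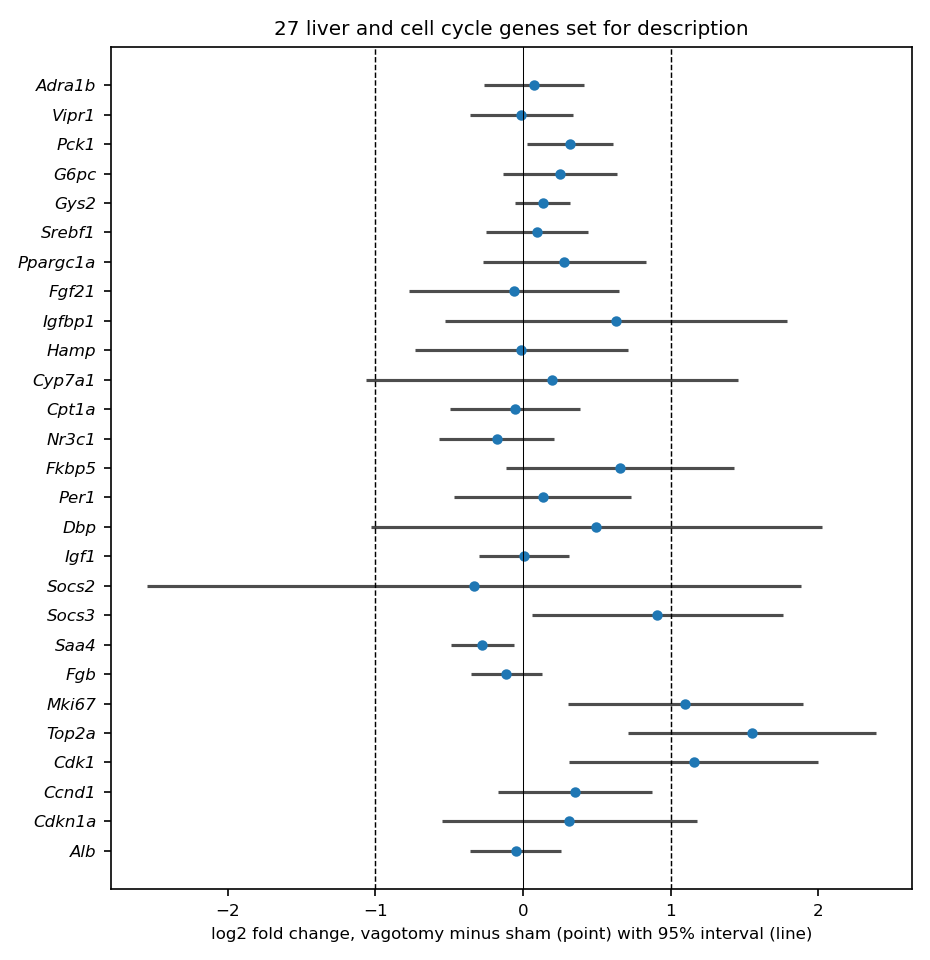
Log2 fold change, vagotomy minus sham (point), with its 95% interval (line) for 27 liver and cell cycle genes; dashed lines mark 2-fold. Intervals are short for Gys2, Fgb, Saa4 and Igf1 and long for Socs2, Dbp, Cyp7a1 and Igfbp1, and those of Top2a, Mki67, Cdk1, Socs3, Pck1 and Saa4 do not include 0, before any adjustment.

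Several hormone-driven genes varied widely from rat to rat in both groups. The growth hormone and STAT5 list had 2-fold excluded for only 10 of 16 genes, with a median of -0.0058. Socs2, an inhibitor that growth hormone pulses induce, had sham values of 180, 408, 1182, 73.3 and 33.9 normalised counts. After vagotomy it ranged from 31.8 to 1123 with a median of 98.2, the groups overlapped fully, and the interval reached from 0.171- to 3.69-fold. Igf1, the main growth factor that growth hormone induces in liver, was steady by contrast, with limits of 0.813- and 1.24-fold. Cyp2c11, a steroid hydroxylase that depends on the growth hormone pattern, had a log2 change of -0.42, with an unadjusted limma p of 0.009765. It held 21942 to 39360 normalised counts in sham and 21003 to 25426 after vagotomy.

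Among glucocorticoid-responsive genes, 2-fold was excluded for 18 of 20, and the median log2 change was 0.00055. Nr3c1, the glucocorticoid receptor, had limits of 0.673- and 1.16-fold. Fkbp5, a cochaperone that this receptor induces, had sham values of 391, 378, 339, 490.3 and 948 normalised counts. Vagotomised values ran from 378 to 1369 with a median of 876, and the groups overlapped. Its log2 change was 0.66 with limits of 0.922- and 2.69-fold. Zbtb16, another induced factor, had the widest interval of the list, 0.713- to 5.99-fold. Clock genes were similar: Dbp, a clock-controlled transcription factor, held 8.21 to 115 normalised counts in sham and 12.4 to 152 after vagotomy (0.489- to 4.07-fold). Per1, a core clock repressor, was held to 0.725- to 1.66-fold, and Clock itself to 0.789- to 1.16-fold.

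Inflammation and plasma proteins showed no called gene. In the acute phase list 2-fold was excluded for 24 of 25 genes, with a median of -0.02. Saa4, a constitutive serum amyloid A, had sham values of 23423, 23355, 19146, 25686 and 22810 normalised counts. Vagotomised livers held 16685 to 20785, with a median of 19070, and overlapped with sham rat 3. The log2 change was -0.27 (0.714- to 0.957-fold), with an unadjusted limma p of 0.01462. Socs3, a feedback inhibitor of interleukin-6 signalling, had sham values of 10.7, 34.7, 18.6, 27.0 and 52.3 and vagotomised values from 18.3 to 79.1, with a median of 54.6. Its log2 change was 0.91 with limits of 1.04- and 3.39-fold, and the groups overlapped. Fgb, the fibrinogen beta chain, was held to 0.785- to 1.09-fold, and Hamp, hepcidin, the iron hormone, to 0.602- to 1.63-fold. For complement and coagulation, 2-fold and 1.5-fold were both excluded for 27 of 27 genes. Interferon-response genes had a median of -0.16, with 3 of 28 estimates above 0, 0 called and 2-fold excluded for 28 of 28.

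Housekeeping machinery was mostly bounded, with ribosomal proteins less so. Respiratory chain subunits coded in the nucleus had 2-fold excluded for 29 of 29 genes and 1.5-fold for 27 (95.9% and 75.8% of all genes). The proteasome list had them excluded for 25 of 25 and 24. Autophagy and lysosome genes had 1.5-fold excluded for 19 of 19. Their medians were -0.04, 0.03 and 0.0095. Among cytosolic ribosomal proteins, 2-fold was excluded for 25 of 29 genes (95.9% of all genes) and 1.5-fold for 20, and Rps23 had the widest interval, 0.581- to 2.33-fold. These genes are uncertain, since near-identical copies can share their reads. Their median was 0.02, and -0.18 without vagotomised livers 1 and 5, where 3 of 29 estimates were above 0. Over the 34 pathway lists together, 2-fold was excluded for 612 of 672 tested genes (91.1%). There were 12 lists in which it was excluded for every tested member, and 32 lists had a median within 0.25 of 0. Gluconeogenesis and mitosis were the exceptions, and without vagotomised livers 1 and 5 mitosis alone was, with 33 lists within 0.25. The least bounded, besides mitosis, were immediate early genes, with 9 of 19, a class of transcripts that respond within minutes to handling and signals.

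**Figure D4:**
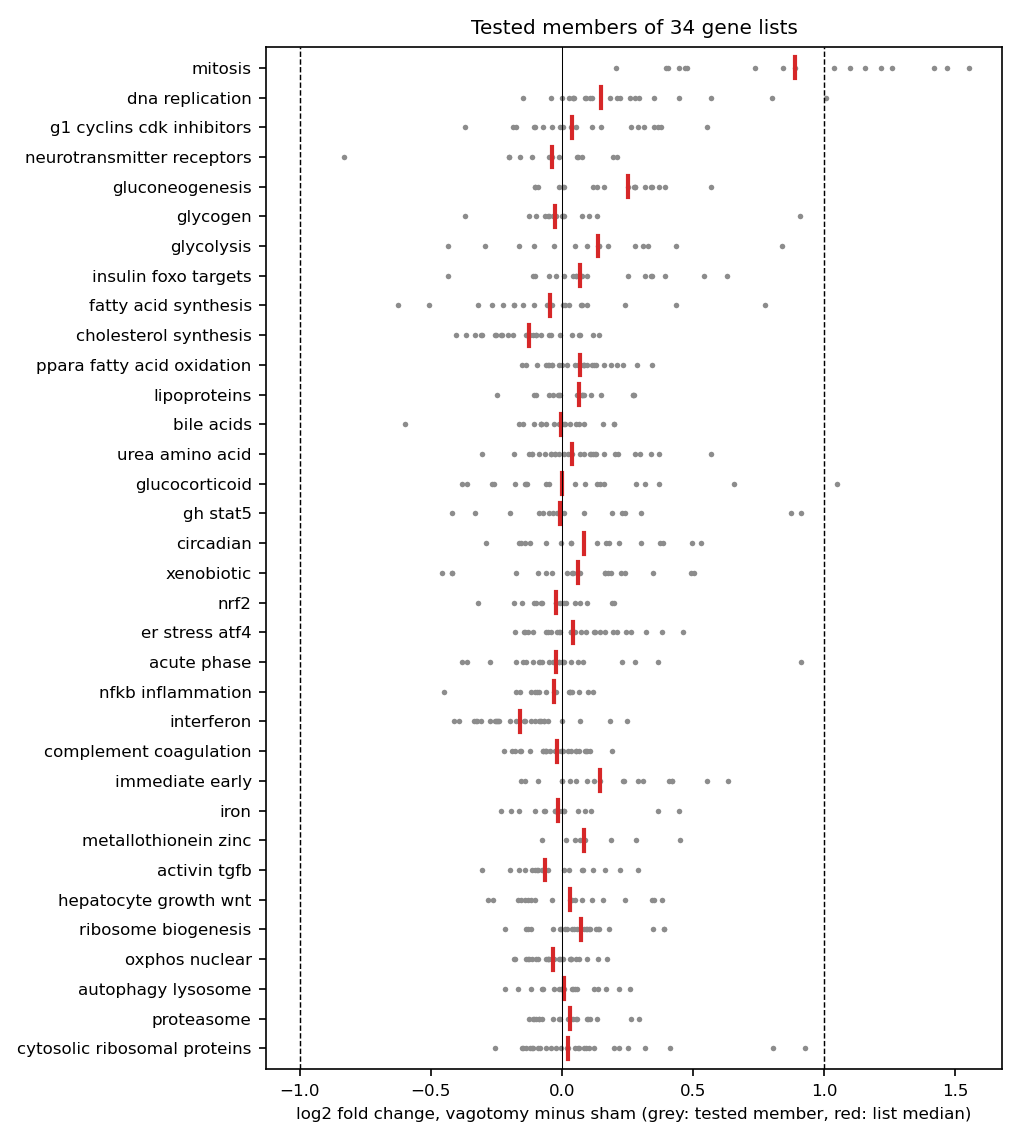
Log2 fold change, vagotomy minus sham, of each tested member (grey points) of 34 gene lists, with the median of the list (red bar); dashed lines mark 2-fold. The medians of 33 lists lie between -0.16 and 0.25, and that of the mitosis list is 0.89.

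Mitosis genes were the group with the largest estimates. Hepatocytes of adult rats rarely divide, and these transcripts are scarce in resting liver. Of 36 listed genes 34 were in the table, and the mean was higher after vagotomy for 34 of 34, against 51.4% of all genes in the table. Only 17 passed the minimum, and 5 of these (Aurkb, Cenpf, Hmmr, Racgap1 and Ect2) had sham means under 10 and so passed through the vagotomised rats, as did 140 of 12431 genes. Of the 17, 0 were called and 12 had an unadjusted p under 0.05, all higher (1.83% of all genes), with a median log2 change of 0.89. The list was chosen with earlier results of these data known, so these counts describe it and test nothing.

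Top2a encodes the topoisomerase that untangles chromosomes. Sham livers held 7.14, 27.8, 20.4, 19.3 and 32.8 normalised counts of it, and vagotomised livers 29.1 at the lowest, 65.5 at the median and 113 at the highest. Of the 6 vagotomised livers 5 lay above every sham liver, and vagotomised rat 5 lay within the sham range. The means were 21.5 ± 9.75 (SD, n = 5) and 64.9 ± 31.1 (SD, n = 6). The log2 change of 1.55 (1.64- to 5.24-fold) had an unadjusted limma p of 0.001415 and an adjusted p of 0.9994. With DESeq2 the adjusted p of Top2a was 0.1447, also not called. Ect2, which sets the site of cell cleavage, was the 1 member in which the groups did not overlap: 3.57, 10.9, 9.29, 10.6 and 4.11 in sham against 15.1 to 39.1 after vagotomy, with a median of 18.2. Its log2 change was 1.47 (1.65- to 4.63-fold).

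Mki67, the proliferation antigen, had sham values of 6.25, 24.8, 23.2, 26.1 and 19.5 and vagotomised values from 23 to 68.9, with a median of 35.7. Cdk1, the kinase that starts mitosis, had 7.14, 14.9, 19.5, 11.6 and 10.3 in sham and 11.0 to 57.4 after vagotomy, with a median of 36.3. Both overlapped between the groups, with log2 changes of 1.10 (1.23- to 3.72-fold) and 1.16 (1.24- to 4.01-fold). Aurka, a spindle kinase and the member with the narrowest interval, had a log2 change of 0.41 (1.04- to 1.68-fold). At the other end Aurkb, its relative in cell division, reached from 0.90- to 4.68-fold. A 2-fold change was excluded for 5 of the 17 genes.

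The vagotomised rats differed among themselves. Summed over the 17 genes, sham livers held 217, 312, 360, 285 and 353 normalised counts, and vagotomised livers 1 to 6 held 774, 489, 559, 833, 370 and 365.9. Vagotomised rats 1 and 4 were highest, 1 or the other of them for 16 of 17 genes. Over these 17 genes rats 5 and 6 lay just above the sham range, and sham rat 1 was lowest for 10 of 17. Over all 34 genes in the table the sums overlapped: sham livers held 257.8 to 429, vagotomised rat 6 held 415 and the other 5 vagotomised rats 455 to 1029. Leaving out 1 library at a time gave 8 to 13 members at an unadjusted p under 0.05.

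**Figure D5:**
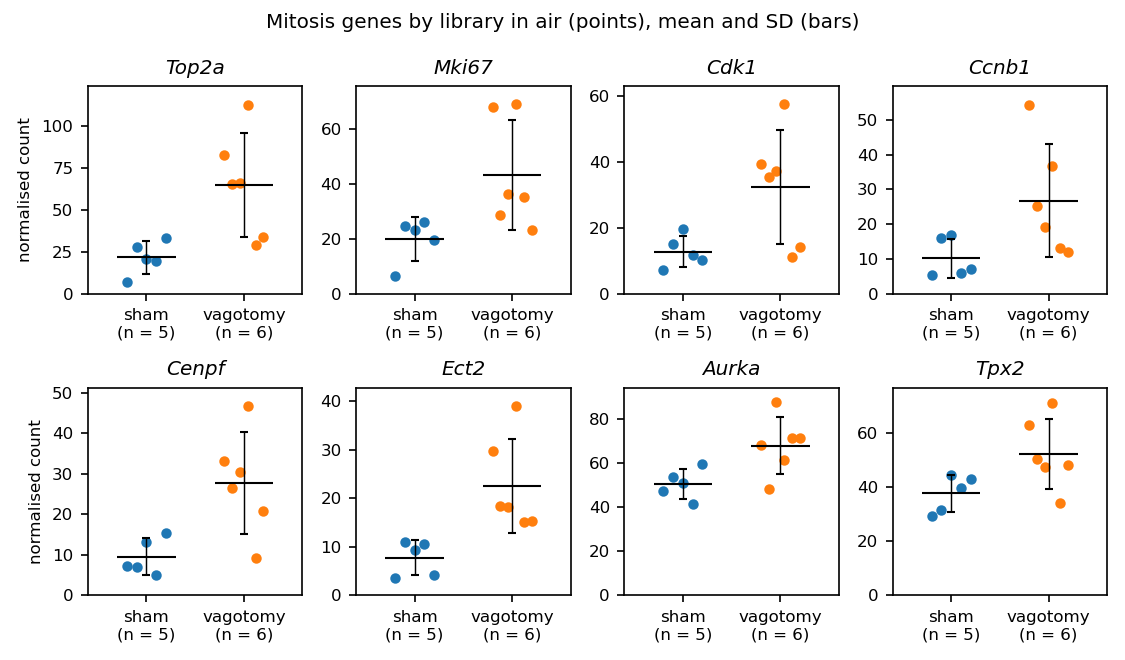
Normalised counts of 8 mitosis genes in each library in air (points), with the mean and SD (bars), for 5 sham and 6 vagotomised livers. Vagotomised livers spread widely, from 29.1 to 113 for Top2a, and some lie among the sham livers in each panel except that of Ect2.

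Genes of the steps before mitosis had smaller estimates. In the DNA replication list 20 of 22 tested genes had estimates above 0 (49.3% of all genes), with a median of 0.15, 3 at an unadjusted p under 0.05, all higher (1.83% of all genes), and 2-fold excluded for 20. Of the 3, Cdt1 and Mcm5 had sham means under 10 and passed the minimum through the vagotomised rats. Cdt1, which licenses replication origins, had the widest interval, with a log2 change of 1.01 (1.15- to 3.52-fold). G1 cyclins and inhibitors had a median of 0.04. Ccnd1, cyclin D1, which starts the cycle in hepatocytes, held 197 to 465 normalised counts in sham and 227 to 498 after vagotomy (0.888- to 1.83-fold). Cdkn1a, the p21 inhibitor, had limits of 0.682- and 2.27-fold. The groups overlapped for both.

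Among the 20 genes with the smallest p, Top2a, Ect2 and Cenpf were mitosis list members. Knl1, a kinetochore scaffold, and Aspm, a spindle pole protein, are 2 further genes of cell division outside the list. Knl1 had the smallest p of all genes, 0.0002265 unadjusted: sham livers held 8.03, 8.92, 6.504, 6.76 and 8.21 normalised counts and vagotomised livers 11.0 to 36.0, with a median of 20.7. The groups did not overlap, and the log2 change was 1.31 (1.67- to 3.70-fold). Aspm had a log2 change of 0.66 (1.22- to 2.05-fold), also without overlap. Over all genes, 24 had no overlap with vagotomy higher (0.193%) and 18 with vagotomy lower (0.145%). Prss53, a serine protease, held 22.8 to 38.4 in sham and 45.1 to 65.3 after vagotomy, a log2 change of 0.78 (1.34- to 2.21-fold). Mss51 and Tfpt were also higher without overlap, with log2 changes of 1.11 and 1.36. Of the 20 genes, 5 (Knl1, Tfpt, Ect2, Mss51 and Cenpf) had sham means under 10.

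Genes with lower estimates included Dio1, the deiodinase that makes active thyroid hormone in liver. Sham livers held 3962, 2992, 3817, 3567 and 3271 normalised counts of Dio1 and vagotomised livers 2537 to 2980, with a median of 2796. The groups did not overlap, though sham rat 2 (2992) and vagotomised rat 1 (2980) were close, and the log2 change was -0.33 (0.693- to 0.911-fold). Lyrm2 and Tmem115, a Golgi membrane protein, were lower without overlap, with log2 changes of -0.48 and -0.40. AABR07046778.1, a clone-named gene model, was the 1 gene with an interval wholly beyond 2-fold, 0.053- to 0.379-fold. Sham livers held 152, 46.6, 108, 108 and 67.7 normalised counts of it and vagotomised livers 0.851 to 46.9, with a median of 11.0. Its groups overlapped narrowly, at sham rat 2, and its adjusted p was 0.9994. Cenpf, a kinetochore protein, had a log2 change of 1.42. The other 7 of the 20 were LOC100361259, LOC100910669, LOC100909712, LOC100909481, Rn50_5_0815.3, Rn50_5_0815.8 and Rn50_10_0698.6, with log2 changes from -0.92 to 1.16.

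The tissue matched its label. Hepatocyte markers were present in full, 11 of 11, and summed to 2652303 or more in each sham library and 2549290 or more in each vagotomised one, with Alb held to 0.781- to 1.196-fold. Over 16 cell type lists, 124 tested entries had 0 calls, and 15 medians lay within 0.25 of 0. At an unadjusted p under 0.05, 3 entries were higher (1.83% of all genes) and 2 lower (1.54%). Estimates were above 0 for 3 of 13 endothelial, 3 of 11 dendritic and MHC class II, and 11 of 13 pericentral hepatocyte markers (49.3% of all genes). Kupffer cell markers summed to 6949 to 8714 in sham and 6309 to 9817 after vagotomy, T and NK cell markers to 298 to 357 and 272 to 442, and mesothelial markers to 70.6 to 253 and 66.3 to 311. Nerve and Schwann cell markers, 7 of 17 in the table, summed to 131 to 232 and 129 to 233. All 4 sums overlapped, and their part in the mitosis values was not tested.

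Leaving out vagotomised livers 1 and 5, the lowest in 5.8S, limma again called 0 genes (802 at an unadjusted p under 0.05, smallest adjusted p 0.3663), and 2-fold was excluded for 11822 genes. All 20 genes with the smallest p kept their direction, and 6 of them remained among the first 20. They were picked by p in these same livers, so a kept direction tests nothing. Mitosis genes kept high estimates, with 10 members at an unadjusted p under 0.05 and log2 changes of 1.67 for Top2a (1.72- to 5.90-fold) and 1.47 for Ect2 (1.53- to 4.98-fold). With all livers and log2 5.8S as a covariate, 5 mitosis members had an unadjusted p under 0.05. The list median was then 0.63, with log2 changes of 1.45 for Ect2 and 0.90 for Mki67. This covariate itself had a lower estimate after vagotomy, so the fit cannot fully part it from the surgery. Liver 1 of this pair was among the highest in mitosis genes and liver 5 among the lowest of its group. Among metabolic genes, Pck1 went to 0.19 (0.965- to 1.35-fold). Chrna7 went to -0.10 (0.617- to 1.42-fold). Hamp, in which vagotomised liver 5 was far above the rest, went to -0.51 (0.568- to 0.873-fold, adjusted p 0.7078). Mlxipl and Dio1 hardly moved, with 0.46 and -0.34.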

How the data were processed

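Per the submitters' processing notes, reads were handled with STAR, Partek, DESeq and DESeq2 on the rat build rn6, without versions; the counting step is not given in the sources used here. The deposited signal is a normalised count per gene, in which the authors scaled each library by 1 factor. All values of each column are whole multiples of 1 step within 0.001 (100%), which gave back whole reads for count tests. Only 11 columns entered any step; the other 11 were not used. Genes are named as deposited, and no coordinates are given.

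The 12431 of 14971 genes whose mean over the 11 libraries reached 10 were fitted as log2(normalised count + 1) with limma 3.58.1 in R 4.3.3, with an intensity trend, no covariate, two-sided tests and Benjamini-Hochberg adjustment over all tested genes. Fold changes are on that log2(value + 1) scale, which understates changes of scarce transcripts. Fold limits were tested with paired one-sided tests from the same fit, adjusted likewise. Alternatives used edgeR 4.0.16 and DESeq2 1.42.0. The steps were checked on simulated counts. Library measures had exact permutation tests. No 2 libraries of a group agreed within sampling noise (lowest chi-square per degree of freedom over 25 within-group pairs 11.55). The p-values set the difference between the groups against the spread among livers within them. Nothing says how rats were housed or batched, so a batch that ran with the groups could not be told apart from the surgery.

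The comparison and the gene lists (34 pathways, 16 cell types, 944 genes, 849 in the table, 772 tested) were chosen with earlier results of these data known. Genes were named by a rule: all called genes, else the 20 smallest p, a set of liver and cell cycle genes in any case (28 of them reported here), and the member of a list with the narrowest or widest interval. Cyp2c11, Anxa6, Scd, Pnpla3, Lpin1, Mcm5 and Serpina10 were picked after their values were seen, as were the 8 genes plotted by library. Several genes stand in more than 1 list. Some listed genes count in the list totals but are not reported here by name.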

Additional observations from a re-analysis of the deposited data

Results flagged for a closer look

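In each group of 5 or 6 livers, the highest and the lowest value were checked for a wide gap to the rest, for 47 named genes and 6 library measures. Of 106 groups checked 11 had such a gap, all at the high end. Independent, normally distributed values would give about 1 in 20. The counts were not checked for normality and the genes share livers, so no excess is read from this. Vagotomised liver 5 stood high for 6 genes: Pck1 (113561 normalised counts, the others 71058 to 83103), G6pc (26710, the others 13544 to 18467), Hamp (6395, the others 1205 to 2681), Alb (1894222, the others 1351639 to 1547684), Chrm3 (11.04, the others 3.40 to 5.36) and Rn50_5_0815.8 (3024, the others 1866 to 2211). It is the liver with the lowest 5.8S ribosomal RNA (89.4 normalised counts). The part of that in these values was not tested.

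Vagotomised liver 3 stood high for Cyp7a1 (10855, the others 1237 to 4802). Vagotomised liver 1 was high for Fgf21 (70.62, the others 14.9 to 35.1) and vagotomised liver 2 for Nr3c1 (4213, the others 2327 to 2727). In the sham group, liver 5 was high for Fkbp5 (948.3, the others 339 to 490.3) and for LOC100910669 (178.6, the others 126 to 140).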

How the results depend on the processing

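The count of called genes was 0 under all 27 alternatives (11 of them leaving out 1 library), and the smallest adjusted p was 0.1447, with DESeq2. The count at an unadjusted p under 0.05 (419) was 721 with array weights and 802 without vagotomised livers 1 and 5. It was 316 to 539 with 1 library left out. The 2-fold limit was excluded for 9515 of 9636 tested genes (minimum mean of 50) to 12720 of 14970 (no minimum). In the main fit it was 11925 of 12431, so the larger count with no minimum is a smaller share of the genes tested. With 1 library left out it was excluded for 11747 to 11929 genes. For 1.5-fold the range was 8401 to 10302. Mitosis members at an unadjusted p under 0.05 (12 of 17 tested) were 5 with 5.8S as a covariate. They were 1 with a minimum mean of 50, which leaves 1 tested member, and 17 of 34 tested with no minimum.

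Of 46 named genes 11 changed sign somewhere, and the smallest unadjusted p at a change was 0.08339 (limma, array weights). None of the 20 with the smallest p changed sign, which their selection in these same livers favours. Log2 changes were, with equal column totals, Vipr1 0.0080 and Hamp 0.0059; with the number after S in the sample names, Vipr1 0.011, Fgf21 0.0037 and Hamp 0.084; with 5.8S as a covariate, Adra1b -0.16, Vipr1 0.014, Srebf1 -0.058 and Cpt1a 0.24; with array weights, Cpt1a 0.25 and Igf1 -0.10. Count tests gave Fgf21 0.065, Hamp 0.25 and Igf1 -0.0028 (edgeR, TMM), 0.053, 0.24 and -0.010 (edgeR, deposited scaling) and 0.056, 0.25 and -0.0056 (DESeq2). Without the livers low in 5.8S, Adra1b was -0.11, Vipr1 0.0028 and Cpt1a 0.22. With 1 library left out, the ranges were Adra1b -0.035 to 0.14, Vipr1 -0.11 to 0.10, Srebf1 -0.0073 to 0.20, Fgf21 -0.31 to 0.13, Hamp -0.34 to 0.15, Cyp7a1 -0.32 to 0.52, Cpt1a -0.13 to 0.12, Per1 -0.046 to 0.34, Igf1 -0.13 to 0.071, Socs2 -0.94 to 0.33 and Cdkn1a -0.077 to 0.54. Library measures, vagotomy minus sham, ranged from -880100 to 528394 total reads, -3.40 to 22.4 genes with a read, -0.67 to 0.10 percentage points in the 10 most abundant genes and -196 to 464 in summed small nucleolar RNA. The causes were not tested.

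Replicate numbers were read as not pairing the rats, since no pairing is stated. Deviations of same-numbered livers correlated at 0.25, 0.26, 0.02, -0.01 and -0.05. The best sham partner was the same-numbered liver for vagotomised livers 1 and 2, but not for 3, 4 and 5. No reference was set for these values, so they do not settle the pairing. With a replicate block, in which vagotomised liver 6 has no partner and drops out, 0 genes were called, 619 had an unadjusted p under 0.05 and 11900 had 2-fold excluded; Hamp was 0.10, Igf1 -0.032 and Socs2 0.10. Intervals lay inside 2-fold least often among transcripts with means of 10 to 30; how far counting error or the spread between rats sets these widths was not tested.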

Other observations

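Several abundant transcripts could not be bounded. Hsp90aa1, a heat-inducible chaperone, had the widest interval among genes with a mean of at least 300, 0.399- to 14.3-fold, with means of 439 ± 374 (SD, n = 5) in sham and 726 ± 697 (SD, n = 6) after vagotomy. Jun, an immediate early factor, reached from 0.389- to 2.69-fold, Bcl6, a repressor that growth hormone controls, from 0.444- to 3.09-fold, and Nr1d1, a clock repressor, from 0.649- to 3.22-fold. These genes were picked by the width of their intervals after the values were seen.

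Serpina10, which encodes protein Z inhibitor, a coagulation serpin, held 74.3 to 463 normalised counts in sham and 15.2 to 378 after vagotomy, a log2 change of -1.63 (0.097- to 1.07-fold). Without vagotomised livers 1 and 5 it had the smallest p of all genes, with a log2 change of -2.90 (0.067- to 0.266-fold) and an adjusted limma p of 0.3663. It was picked for that value.

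The clone-named models Rn50_5_0815.3 and Rn50_5_0815.8 are both among the 20 genes with the smallest p. Their values stood in a ratio between 3.77 and 4.53 in the 11 libraries, so they may not be separate observations; whether they share reads was not tested.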
